A study of Mus musculus with 12 samples.

Results

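The genes described here are 10 costimulatory and checkpoint molecules of B lymphocytes, taken by symbol from a fixed list: Cd80, Cd86, Icosl, Cd274, Pdcd1lg2, Btla, Cd72, Cd47, Cd200 and Il4i1. All 10 were among the 24982 gene symbols of the data. The study sequenced polyadenylated RNA of splenic B lymphocytes from mice aged 6 weeks, with 4 libraries in each of 3 groups. WT mice were C57BL/J6, Eμ-Myc mice carried a Myc transgene, and Eμ-Myc; PRPS2 KO mice carried the same transgene and lacked PRPS2, and are called the knockout group here. The Eμ enhancer of the immunoglobulin heavy chain drives Myc in B cells, so both transgenic groups share that model, and no group lacked PRPS2 without the transgene. The labels do not say how the B cells were isolated, whether the knockout was limited to a tissue, or whether the mice carried tumours. They number the libraries as biological replicates without naming the animals, so p-values measure the spread between these libraries.

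T cells need a costimulatory signal beside that of the antigen receptor, and B cells can give it as antigen-presenting cells. CD80 and CD86 bind CD28, which activates, and CTLA-4, which inhibits, and ICOS ligand binds ICOS on helper T cells. PD-L1 (Cd274) and PD-L2 (Pdcd1lg2) bind PD-1 and restrain T cells. BTLA and CD72 carry inhibitory motifs and dampen the lymphocyte that bears them. CD47 signals through SIRPα to stop phagocytes from engulfing a cell, and CD200 restrains myeloid cells through the CD200 receptor. Il4i1 encodes a secreted amino acid oxidase, first found as an interleukin 4-induced gene of B cells, and is not a surface protein.

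Values are scaled coverage, the authors' coverage per gene divided by a scaling factor per library. The targeted gene Prps2 fell in the knockout libraries to between 16.2 and 18.3, against 199 to 287 in Eμ-Myc. Myc lay between 226 and 346 in WT, between 1559 and 2302 in Eμ-Myc, and at 1099, 1718, 3017 and 3282 in knockout libraries 1 to 4. All 7 pan-B-cell markers used, such as Cd79a and Pax5, were above 1 in every library, with sums between 7065 and 13217. Markers of other cells differed between libraries. The summed T-cell list held 669 to 3552 in WT, with the highest value in WT library 4, 154 to 213 in Eμ-Myc, and 785, 873, 56.5 and 58.6 in knockout libraries 1 to 4. Knockout libraries 3 and 4 thus stood apart from libraries 1 and 2.

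**Figure D1:**
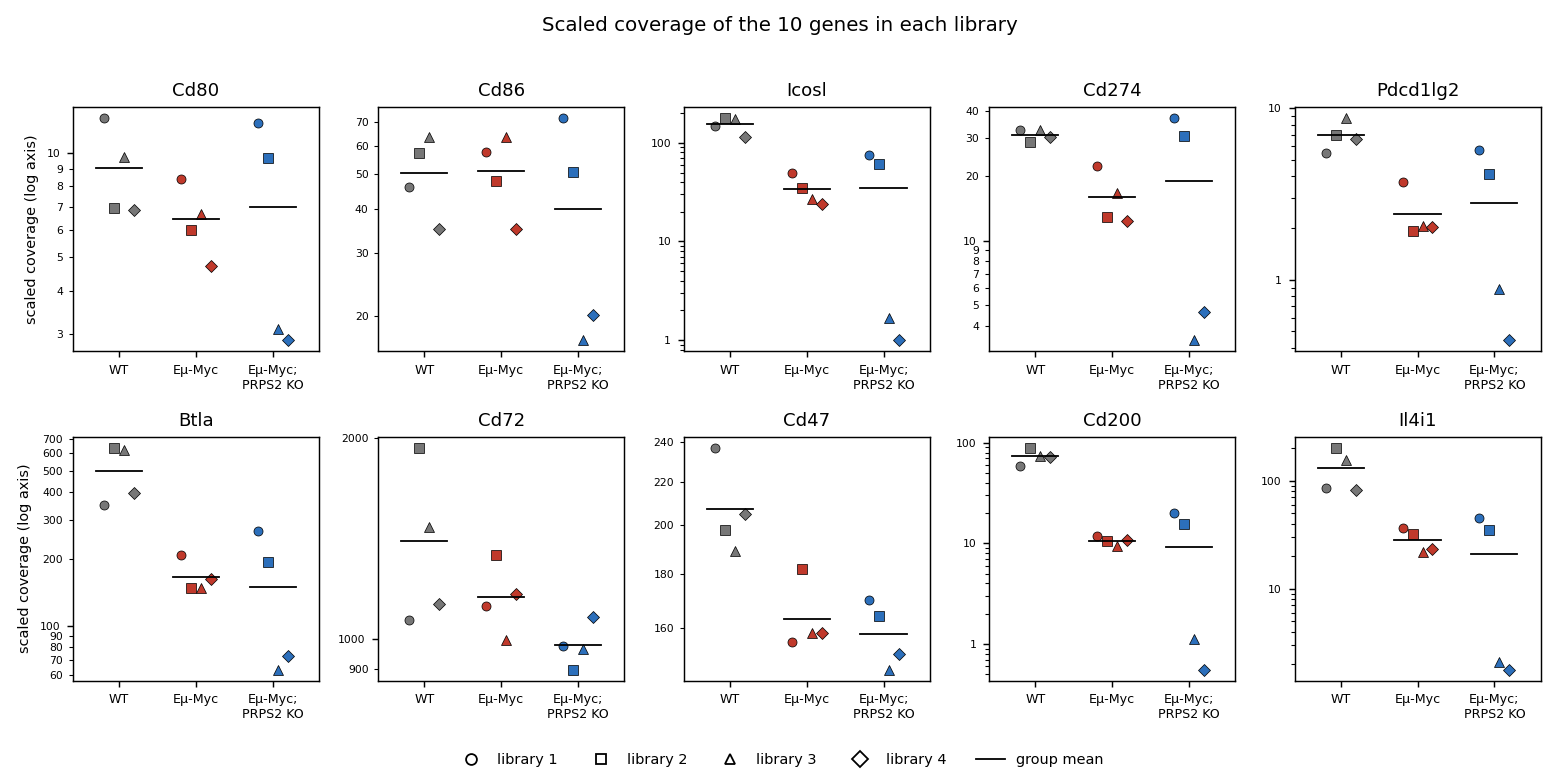
Scaled coverage (log axis, with its own range in each panel) of the 10 genes in each of the 12 libraries; symbols mark libraries 1 to 4 and lines the group means. WT and Eμ-Myc libraries separate for Cd200 and Icosl, and knockout libraries 3 and 4 lie far below libraries 1 and 2 for 8 of the 10 genes.

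Promoter windows are shown for Cd200 and Il4i1, which had among the largest decreases, and for Btla, the only gene of the list with one of the motifs searched. Each window runs from 250 bases before the RefSeq start to 20 bases after it, on GRCm38.p6, and is written along the gene's strand. The windows were taken from chr16:45409004-45409303 (minus strand) for Cd200, chr7:44836038-44836337 (plus strand) for Il4i1 and chr16:45224087-45224386 (plus strand) for Btla, and capitals mark a motif.
Cd200: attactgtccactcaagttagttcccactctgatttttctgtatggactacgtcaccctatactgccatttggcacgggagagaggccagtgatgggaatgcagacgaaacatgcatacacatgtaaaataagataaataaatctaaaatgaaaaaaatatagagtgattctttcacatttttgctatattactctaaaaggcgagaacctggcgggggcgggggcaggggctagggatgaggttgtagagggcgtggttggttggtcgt
Il4i1: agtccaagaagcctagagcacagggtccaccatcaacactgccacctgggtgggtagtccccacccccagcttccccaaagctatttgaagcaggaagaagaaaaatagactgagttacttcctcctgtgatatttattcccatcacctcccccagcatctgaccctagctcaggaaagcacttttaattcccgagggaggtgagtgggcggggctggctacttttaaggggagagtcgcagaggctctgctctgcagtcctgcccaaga
Btla: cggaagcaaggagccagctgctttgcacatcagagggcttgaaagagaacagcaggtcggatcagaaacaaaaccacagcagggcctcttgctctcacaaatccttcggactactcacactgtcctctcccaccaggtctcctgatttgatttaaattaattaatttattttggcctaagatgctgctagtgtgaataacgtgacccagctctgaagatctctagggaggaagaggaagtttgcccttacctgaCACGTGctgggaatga
The motifs were CACGTG, the E-box that MYC-MAX dimers bind, TTCNNNGAA, read by STAT factors, and an NF-κB site of GGGA, any 2 bases and TTCC, each searched on both strands over the full 300 bases. RefSeq windows were found for 9 of the 10 genes, Cd86 being the one without. The E-box was in Btla alone, 5 bases after the start, while 7.15% of all 32851 promoter windows hold it. The STAT and NF-κB letters were in none of the windows of these 9 genes, and in 8.3% and 1.47% of all windows. These are matches of letters and say nothing about binding.

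In Eμ-Myc against WT, which asked what the transgene does to B-cell expression, 7 of the 10 genes fell and none rose. They were Cd200, Icosl, Il4i1, Btla, Pdcd1lg2, Cd274 and Cd47. Cd80, Cd86 and Cd72 did not pass the test. The decreases ran from a log2 fold change of -2.72 for Cd200 to -0.34 for Cd47. Values were tested with limma as log2(scaled coverage + 0.5), a gene was called when its p, adjusted by Benjamini and Hochberg's method across the transcriptome, was under 0.05, and all 10 genes were high enough to be tested. Of the 12723 genes tested, 24.7% were called lower, 30.4% higher and 55.1% in either direction. The higher calls were 55.2% of all calls, and 42% with total coverage scaling, which left the 7 calls of the list in place. In the same 7 genes every Eμ-Myc library lay below every WT library, which held for 22.8% of all genes, while the groups stood apart in either direction for 51.4%. The median log2 fold change of the 10 genes was -1.17, and that of all genes tested -0.01. With all 12 libraries in one fit, where the wider spread of the knockout group enters, 3 of the 7 stayed called, namely Cd200, Btla and Cd47. Among all genes, 5460 were called in either direction in that fit, 62% of them higher, against 7016 in the fit reported.

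Among the B7 ligands, Icosl held 149, 178, 176 and 114 in WT libraries 1 to 4 and 49.3, 34.7, 26.8 and 23.8 in Eμ-Myc libraries 1 to 4. The groups were far apart, and the ratio of 0.215 put Icosl at percentile 1 of all log2 fold changes. The limma estimate was -2.21 on the log2 scale (SE 0.23, adjusted p 6.32e-05), and in the fit of 12 libraries its adjusted p was 0.122. Cd274, which encodes PD-L1, held 32.6, 28.7, 32.6 and 30.5 in WT and 22.2, 12.9, 16.7 and 12.3 in Eμ-Myc. WT values were close together and Eμ-Myc values all lower, and limma gave a log2 fold change of -0.97 (SE 0.18, adjusted p 0.00173, or 0.224 in the fit of 12 libraries). An annotated antisense gene, AC119228.1, shares 511 of the 3622 exon bases of Cd274 and is not among the symbols of the data. Pdcd1lg2, which encodes PD-L2, was the lowest of the 10 genes, at 5.49, 6.94, 8.75 and 6.60 in WT and 3.69, 1.91, 2.05 and 2.03 in Eμ-Myc. Eμ-Myc library 1 was the highest of its group and still below all WT libraries. The limma estimate was -1.37 (SE 0.23, adjusted p 9.64e-04, or 0.0519 in the fit of 12 libraries). With a pseudocount of 2 it was -1.02, and it lay between -1.59 and -1.02 over the alternatives.

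The classical CD28 ligands, Cd80 and Cd86, did not pass the test. Cd80 held 12.6, 6.94, 9.70 and 6.82 in WT and 8.42, 6.00, 6.68 and 4.73 in Eμ-Myc, which overlap. Its log2 fold change was -0.43 (95% interval -0.98 to 0.11, limma adjusted p 0.154). Cd86 held 45.9, 57.3, 63.6 and 35.1 in WT and 57.6, 47.9, 63.4 and 35.1 in Eμ-Myc, nearly the same range. Its log2 fold change was 0.02 (95% interval -0.49 to 0.53, limma adjusted p 0.959), and its sign depended on the scaling, at -0.17 with total coverage.

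The inhibitory receptors differed from each other. Btla, which binds the herpesvirus entry mediator, held 350.1, 637, 623 and 398 in WT and 209, 148, 148 and 163 in Eμ-Myc, with no overlap. Its log2 fold change was -1.55 (SE 0.21, limma adjusted p 2.94e-04), and it was called under every alternative run. Cd72, a B-cell co-receptor that recruits the phosphatase SHP-1, was the highest of the 10 genes, at 1067, 1935, 1472 and 1128 in WT and 1121, 1338, 997 and 1169 in Eμ-Myc. The groups overlapped, and the log2 fold change was -0.24 (95% interval -0.67 to 0.18, limma adjusted p 0.295). With library quality weights Cd72 passed, at -0.53 (adjusted p 0.00956). Its neighbour Tesk1 on the opposite strand shares 1423 of the 3422 annotated exon bases of Cd72, and whether counting used the strand is not given in the sources used here. Tesk1 itself was called lower in Eμ-Myc, with a log2 fold change of -1.05 (limma adjusted p 1.53e-04).

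The signals to phagocytes and myeloid cells both fell, by very different amounts. Cd200 held 59.0, 89.4, 73.1 and 71.9 in WT and 11.8, 10.5, 9.35 and 10.8 in Eμ-Myc. The Eμ-Myc libraries were tightly grouped at about a ratio of 0.152 to WT, which put Cd200 at percentile 0.4 of all genes. Its log2 fold change was -2.72 (SE 0.14, limma adjusted p 2.04e-06), between -2.90 and -2.57 over the alternatives. Cd47 held 237, 198, 189 and 205 in WT and 155, 182, 158 and 158 in Eμ-Myc. The groups did not overlap, but the change was small, at -0.34 (SE 0.10, limma adjusted p 0.0198). The call of Cd47 was lost without Eμ-Myc library 3 (adjusted p 0.0582) or Eμ-Myc library 4 (0.0586).

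Il4i1 held 85.6, 202, 156 and 81.4 in WT and 36.8, 31.8, 21.7 and 23.3 in Eμ-Myc. WT libraries 2 and 3 were the highest, and the lowest WT library was still above all Eμ-Myc libraries. The limma estimate was -2.12 (SE 0.31, adjusted p 4.84e-04, or 0.0714 in the fit of 12 libraries). Il4i1 shares 97 exon bases with Nup62 on the same strand and 82 with Atf5 on the opposite strand, in the GENCODE annotation. Nup62, a nuclear pore protein, went the other way, from 39.3 ± 4.68 to 101 ± 14.3 (SD, n = 4), a log2 fold change of 1.35 (limma adjusted p 3.35e-05). Tbc1d17 on the opposite strand, whose exons overlap 3423 of the 4080 exon bases of Il4i1, had a log2 fold change of -0.18 (limma adjusted p 0.316). How reads in these shared bases were assigned is not given in the sources used here, so the level of Il4i1 is uncertain.

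**Figure D2:**
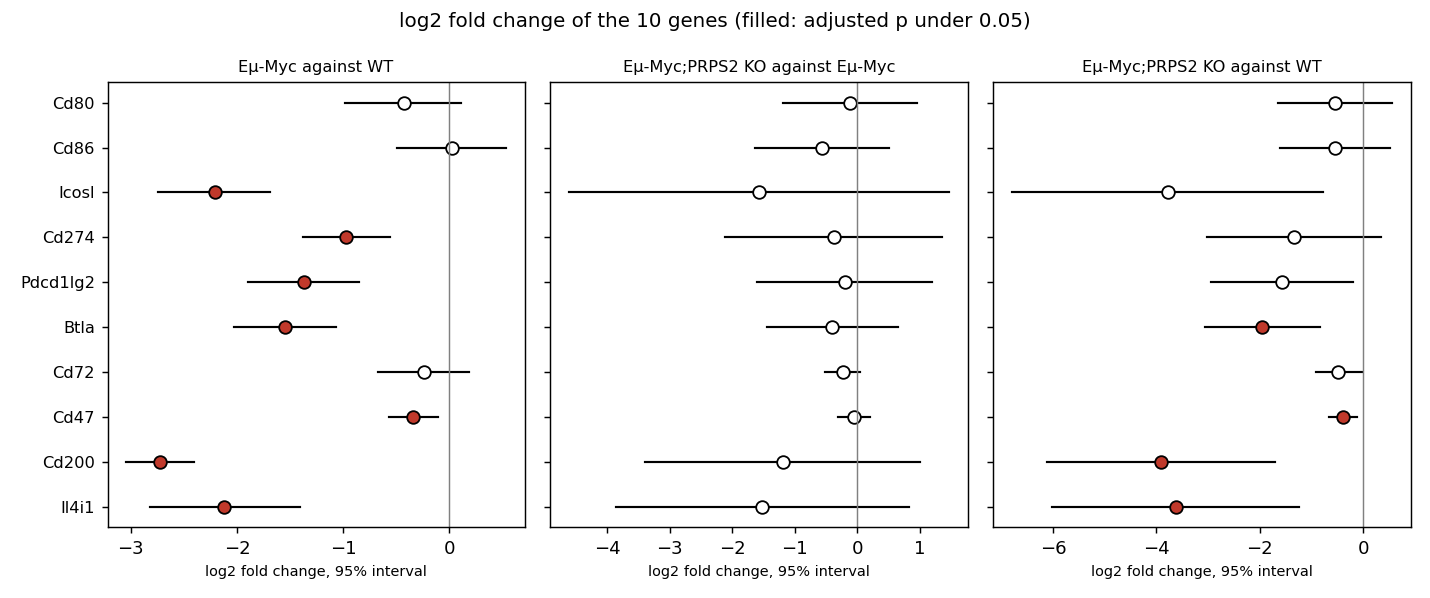
Log2 fold changes (points) with 95% intervals (bars) of the 10 genes in the 3 comparisons; filled points passed an adjusted p under 0.05 in limma, and each panel has its own axis. Filled points number 7 in Eμ-Myc against WT and 4 in the knockout group against WT, and 0 where the transgenic groups are compared.

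Several of these genes are also expressed by other spleen cells, among them Btla by T cells, Cd200 by T cells and Il4i1, Cd80 and Cd86 by dendritic cells and macrophages. In bulk RNA, fewer cells of a type and less RNA per cell cannot be told apart. Markers of T cells and NK cells moved with the decrease: 10 of 10 and 7 of 7 were called lower in Eμ-Myc, against 24.7% of all genes. Of the dendritic-cell markers 3 of 7 were called lower, and of the myeloid markers 0 of 10. The summed NK list held 346 to 1478 in WT and 94.3 to 245 in Eμ-Myc, and the dendritic list 178 to 260.1 and 91.6 to 150.5. None of these markers was at 0 in all libraries of a group. The 5 mature B-cell markers tested were also all called lower, with sums of 3569 to 5432 in WT and 1099 to 1599 in Eμ-Myc. Their part in the result was not tested.

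**Figure D3:**
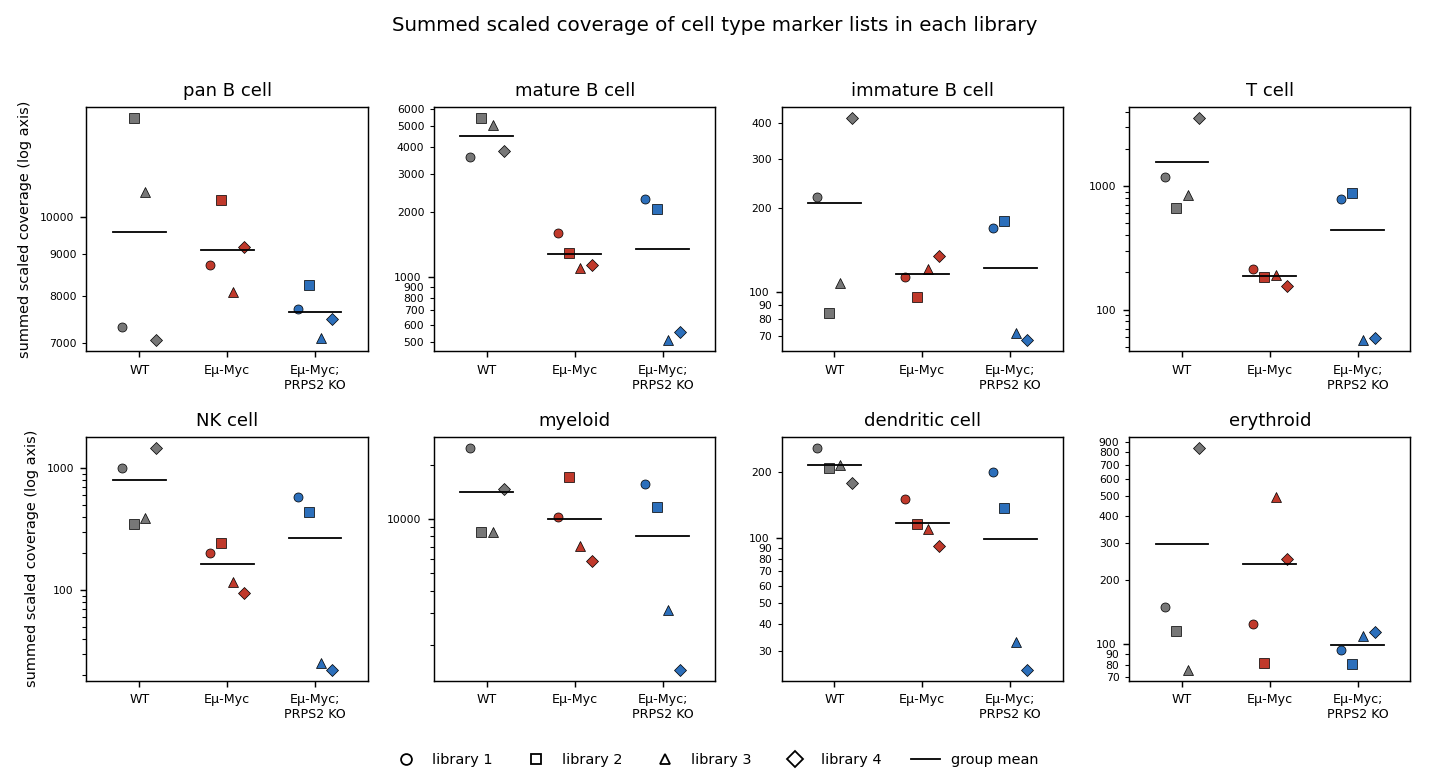
Summed scaled coverage (log axis, with its own range in each panel) of 8 lists of cell type markers in each library; symbols mark libraries 1 to 4 and lines the group means. Pan-B-cell sums stay between 7065 and 13217, while T-cell, NK, myeloid, dendritic and mature B-cell sums are low in knockout libraries 3 and 4 and erythroid sums are not.

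The genes around these molecules were taken from 5 lists. Their counts stand beside the 24.7% of all genes called lower and 30.4% called higher. Of the 10 counter-receptors, 8 were called lower in Eμ-Myc and 0 higher, and Sirpa and Cd200r1, the receptors of CD47 and CD200, did not pass. The smallest p belonged to Sema4d, the ligand of CD72, with a log2 fold change of -1.33 (limma adjusted p 2.15e-05). It was followed by Cd28 with -3.02, Tnfrsf14, which encodes the partner of BTLA, with -0.98, and Icos with -1.84. Cd28 and Icos are T-cell genes, and WT library 4 held 50.8 for Cd28 against 6.75 to 14.7 in the other WT libraries. Of 18 other costimulatory and checkpoint ligands 14 were tested, 8 lower and 2 higher. Those with the smallest p were Lgals9 with 0.70, Cd276 with -1.66, Havcr1 with -2.33 and Cd40, the receptor for T-cell help, with -1.13. Cd276, at 1.12 to 2.54 in WT and 0.113 to 0.378 in Eμ-Myc, reached the minimum for testing through the WT libraries alone, so its direction was set by that minimum. Lgals9, which encodes galectin-9, thus rose, from 399 ± 32.0 to 650.3 ± 67.6 (SD, n = 4).

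Of 15 B-cell receptors, most of them inhibitory, and their phosphatases 14 were tested. Of these 6 were lower and 0 higher, against the same 24.7% and 30.4%. Ptpn6, which encodes SHP-1, had a log2 fold change of -0.89 (limma adjusted p 4.80e-04). The next were Fcrl5 with -1.66, Cd5 with -2.97 and Fcrl1 with -1.12. An inhibitory role of Fcrl1 is not established here, and it is among the 6. Cd5 is also a T-cell gene, and held 42.8, 24.8, 31.0 and 176 in WT libraries 1 to 4 and 26.6, 36.2, 0.555 and 0.111 in knockout libraries 1 to 4, with WT library 4 the highest as for the summed T-cell list. Among 4 genes listed as modifiers of CD47 or PD-L1, Cmtm6, which keeps PD-L1 at the surface, fell by 1.07 (limma adjusted p 1.90e-04). Qpct, listed beside Qpctl and not shown here to modify CD47, fell by 1.08 (limma adjusted p 0.00795). Cmtm4 rose by 0.65 (adjusted p 0.0313), and Qpctl, which modifies CD47, was at -0.11 (adjusted p 0.498). Of 19 NF-κB, STAT and IRF regulators and cytokine receptors 18 were called lower and 0 higher, with Irf4 the exception at 0.38 (limma adjusted p 0.229). The smallest p were those of Il4ra with -2.13, Il21r with -2.32, Relb with -1.46 and Nfkb2 with -1.68. Il4ra is a subunit of the interleukin 4 receptor, and held 229 to 266 in WT and 47.0 to 69.4 in Eμ-Myc. The median log2 fold changes of the 5 lists, in the order given here, were -1.32, -0.84, -0.73, -0.59 and -1.04, against -0.01 for all genes. With single libraries left out, 5 to 7 of the other ligands were called lower, with 5 without WT library 1 or 4 or Eμ-Myc library 3 or 4. Cmtm4 passed without WT library 3 or Eμ-Myc library 2, and not without any of the others.

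**Figure D4:**
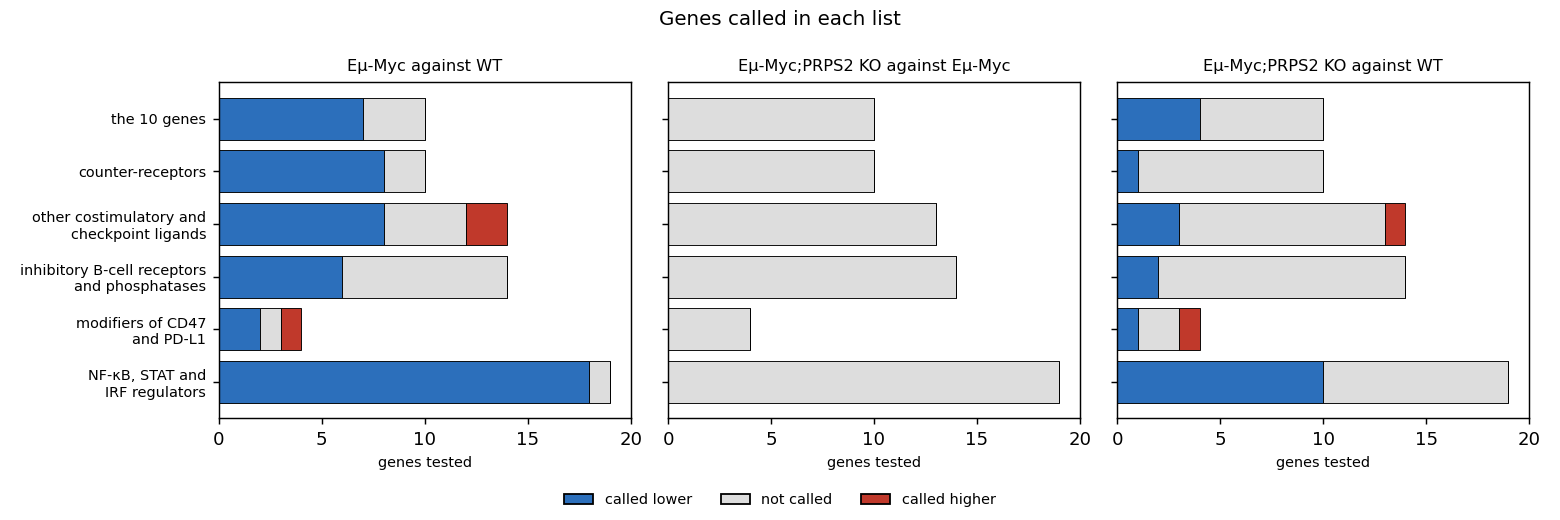
Number of genes tested in the 10-gene list and in 5 lists of related genes that were called lower (blue), called higher (red) or not called (grey) in each of the 3 comparisons. Of the NF-κB, STAT and IRF regulators 18 of 19 were called lower in Eμ-Myc and 10 of 19 in the knockout group, both against WT.

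Setting the knockout libraries against those of Eμ-Myc asked how loss of PRPS2 bears on the Myc-driven programme. By limma 0 of the 10 genes were called, and 0 had an unadjusted p under 0.05. Of all 12551 genes tested 0.00797% were called, which was Prps2 alone, and 121 had an unadjusted p under 0.05. All 10 log2 fold changes were below 0, with a median of -0.39 against -0.03 for all genes, and every gene overlapped between the groups, where 1.53% of all genes did not (0.765% lower and 0.765% higher). The intervals were wide for most genes and narrow for 2. For Cd47 the 95% interval ran from -0.31 to 0.20 and for Cd72 from -0.52 to 0.05. For Icosl it ran from -4.60 to 1.46, for Il4i1 from -3.86 to 0.82 and for Cd200 from -3.39 to 1.01, so that neither a large decrease nor a modest increase was outside them. With same-numbered libraries paired, 0 of the 10 genes were called and 0 had an unadjusted p under 0.05. Cd72 was lower in the knockout library of all 4 pairs (limma adjusted p 1.00), as were 3.34% of all genes. Of the 10 genes, 8 were higher in pairs 1 and 2 and lower in pairs 3 and 4, a share not computed for all genes. Knockout libraries 1 and 2 both lay above libraries 3 and 4 in 42.8% of the genes tested against WT, and both below in 44.7%. Leaving out single libraries of either group gave 0 calls each time. The log2 fold change then ran from -2.49 to -0.61 for Icosl, from -1.88 to -0.46 for Cd200, from -2.25 to -0.81 for Il4i1, from -0.77 to -0.08 for Btla and from -0.93 to -0.25 for Cd86. For Cd80, Cd274 and Pdcd1lg2 it was above 0 without knockout library 3 or 4, at up to 0.18, 0.18 and 0.27, and for Cd80 also without Eμ-Myc library 1, at 0.01. Library quality weights gave knockout libraries 1 and 2 weights of 0.0817 and 0.129 and libraries 3 and 4 weights of 3.20 and 7.76. With them 8 of the 10 were called lower. Of all 12551 genes tested, 7459 were then called, counting both directions, so most genes passed under this setting.

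The knockout libraries were spread widely. Icosl held 75.2, 60.7, 1.67 and 0.998 in knockout libraries 1 to 4. Libraries 1 and 2 were above every Eμ-Myc library, and libraries 3 and 4 were far below them. Cd200 held 20, 15.5, 1.11 and 0.555, and Il4i1 held 44.8, 34.6, 2.11 and 1.78, with libraries 3 and 4 again below all Eμ-Myc libraries. Cd274 held 37.2, 30.8, 3.44 and 4.66, so that PD-L1 coverage in libraries 1 and 2 was in or above the WT range of 28.7 to 32.6. Pdcd1lg2 held 5.69, 4.15, 0.888 and 0.444. Btla held 268, 195, 63.5 and 73.4, with library 2 inside the Eμ-Myc range of 148 to 209. The CD28 ligands were also split between the same libraries. Cd86 held 71.8, 50.7, 17.1 and 20.1, and Cd80 held 12.2, 9.64, 3.11 and 2.88. In contrast Cd72 held 977, 899, 966 and 1079, and Cd47 held 170.0, 164, 146 and 151, a narrow range in both.

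The SD of log2 values over the 4 knockout libraries was 3.04 for Icosl, 2.33 for Il4i1, 2.21 for Cd200, 1.70 for Cd274, 1.32 for Pdcd1lg2, 1.02 for Btla and 0.99 for Cd80 and Cd86. It was 0.11 for Cd72 and 0.10 for Cd47, and the median over all genes tested was 0.39, against 0.22 in WT and 0.22 in Eμ-Myc. Knockout libraries 1 and 2 both lay above libraries 3 and 4 in 9 of the 10 genes, Cd72 being the exception, and in 42.8% of all genes tested. In another 44.7% of all genes both lay below libraries 3 and 4, so most genes were split between these libraries, in either direction. The same 2 libraries held more signal of other cells and of mature B cells: the summed mature B-cell list was 2285, 2052, 508 and 553 in libraries 1 to 4, the NK list 577, 442, 25.4 and 22.2, the dendritic list 201, 137, 33.1 and 24.7, and the myeloid list 15744, 11737, 3118 and 1449.9. The immature B-cell list was split the same way, at 169.9, 180.0, 71.4 and 67.5. It includes Il7r, which T cells also express and which held 84.9, 99.7, 7.66 and 5.99. The plasma-cell sum was not split, at 808, 993, 901 and 851, but its genes were, in both directions. Jchain held 184, 234, 2.00 and 2.44 in libraries 1 to 4, and Prdm1 and Xbp1 were also higher in libraries 1 and 2. Mzb1 held 429.7, 535, 795 and 745, and Sdc1 was also lower in libraries 1 and 2. The erythroid sum was lower in libraries 1 and 2, at 93.6, 80.7, 109 and 114. Myc coverage was lower in libraries 1 and 2 as well, as given above. The part of these in the spread was not tested.

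Against WT, 4 of the 10 genes were called in the knockout group, all lower, where 9.6% of the 12692 genes tested were called lower, 19.7% higher and 29.3% in either direction. By limma they were Cd200 at -3.91 on the log2 scale (SE 0.96, adjusted p 0.0273), Il4i1 with -3.63 (SE 1.04, adjusted p 0.0379), Btla with -1.95 (SE 0.49, adjusted p 0.0282) and Cd47 with -0.39 (SE 0.12, adjusted p 0.0421). Icosl, with -3.78 (SE 1.31, adjusted p 0.0579), did not pass although all its knockout libraries lay below all WT libraries. Such separation was found in 5 of the 10 genes, all lower, and in 14.9% of all genes, or 37.1% counting both directions. Pdcd1lg2 was at -1.57 (adjusted p 0.0725), Cd274 at -1.34 (adjusted p 0.166), Cd72 at -0.48 (adjusted p 0.0861), and Cd80 and Cd86 both at -0.55 (adjusted p 0.358 and 0.345). All 4 called genes were also called in Eμ-Myc against WT, but both comparisons use the same WT libraries.

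The 4 calls depended on which libraries were used. So did the 3716 calls among all genes in this comparison, whose counts under the same settings are given in the closing sections. Leaving out any 1 of the 4 WT libraries, or either of knockout libraries 3 and 4, left none of the 10 genes called. Dropping knockout library 1 gave 7 calls, and dropping knockout library 2 gave 4. The log2 fold change of Cd200 lay between -4.61 and -3.18 in these fits, and was -5.99 with library quality weights. Over all alternatives Il4i1 lay between -5.94 and -2.93, Icosl between -6.57 and -2.82, Btla between -2.96 and -1.63 and Cd47 between -0.55 and -0.33. With all 12 libraries in one fit 7 were called, with library quality weights 10, and with the replicate number as a block 2, Cd200 and Il4i1. In the related lists, 1 of 10 counter-receptors, 2 of 14 B-cell receptors and phosphatases, and 10 of 19 regulators were called lower against WT. None of these genes was called higher, and 9.6% of all genes were lower. The shares of the first 2 lists are near that background. Of the 14 other ligands 3 were lower, Cd276 again among them through WT alone, and 1 higher, and of the 4 modifiers 1 was lower and 1 higher. Lgals9 was the ligand that rose, by 0.58 (limma adjusted p 0.0257). Leaving out single libraries was, for these lists, an alternative chosen after seeing the data. Called lower were then 0 to 18 regulators, 0 to 5 counter-receptors, 0 to 8 B-cell receptors and phosphatases, 0 to 6 other ligands and 0 to 1 modifiers. Without any 1 of the WT libraries, or without knockout library 3 or 4, 0 regulators were called and Lgals9 did not pass. Against Eμ-Myc, limma called 0 of the genes tested in these 5 lists, and 0 had an unadjusted p under 0.05.

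The order of the 10 genes by coverage also differed. Genes of different length can be set side by side only if coverage is a mean per base, a reading that rests on the name the authors gave the values and is not stated in the sources used here. The order, and the places of Cd72 as highest and Pdcd1lg2 as lowest, depend on it. In WT the order was Cd72 (1401), Btla (502), Cd47 (207), Icosl (154), Il4i1 (131), Cd200 (73.4), Cd86 (50.5), Cd274 (31.1), Cd80 (9.0) and Pdcd1lg2 (6.95), as group means. Neighbours overlapped between libraries for Icosl and Il4i1, Il4i1 and Cd200, Cd200 and Cd86, and Cd80 and Pdcd1lg2. In Eμ-Myc Cd86, at 51.0, stood above Icosl at 33.6 and Il4i1 at 28.4, and Cd200, at 10.6, stood below Cd274 at 16.0. Neighbours overlapped there for Btla and Cd47, Cd86 and Icosl, Icosl and Il4i1, and Il4i1 and Cd274, and the libraries of Cd86 and Il4i1 overlapped as well. In the knockout group every neighbour below Cd72 overlapped the next.

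Similarity of pattern was measured as the root-mean-square difference of log2 values over the 12 libraries, each gene centred on its own mean. Among 12083 genes the nearest to Cd200 were Il21r at 0.32, Gpr183 at 0.34 and Egr3 at 0.35. Il21r encodes the interleukin 21 receptor, Gpr183 an oxysterol receptor that guides B cells, and Egr3 an immediate-early transcription factor. The nearest to Il4i1 were Pxdc1 at 0.22, Fcmr, the Fc receptor for IgM, at 0.28, and Trim7 at 0.30. Within the list the closest pairs were Cd72 and Cd47 at 0.28, which both moved little, and Pdcd1lg2 and Btla at 0.31. The libraries are shared by all these genes, and the values describe likeness only. Over 10 libraries, without knockout libraries 3 and 4, Gpr183 stayed among the 3 nearest to Cd200 at 0.32, and Pxdc1 and Fcmr among the 3 nearest to Il4i1 at 0.14 and 0.18, while Il21r, Egr3 and Trim7 did not.

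**Figure D5:**
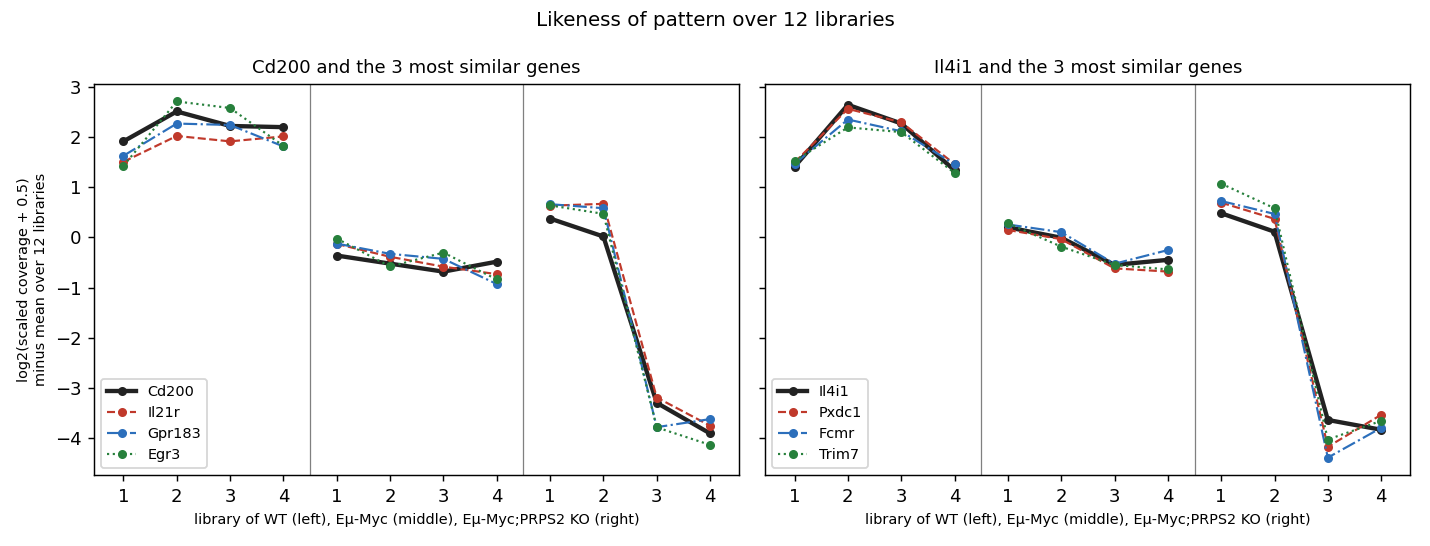
Log2(scaled coverage + 0.5), centred on each gene's mean over 12 libraries, for Cd200 (left) and Il4i1 (right) with the 3 genes nearest in pattern; the 4 libraries of WT, Eμ-Myc and the knockout group are separated by vertical lines. All 8 genes are high in WT, lower in Eμ-Myc and lowest in knockout libraries 3 and 4.

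By position, 5 of the 10 genes lie on chromosome 16 in the GENCODE annotation of GRCm38, the build that the submitters' processing notes name as mm10. Cd86 is at chr16:36603869-36666081, Cd80 at chr16:38455561-38496335, Btla at chr16:45224315-45257670, Cd200 at chr16:45382135-45409053 and Cd47 at chr16:49800533-49915010. Btla and Cd200 are 124464 bases apart and both fell in Eμ-Myc, while Cd86 and Cd80, elsewhere on the chromosome, did not pass. Cd274 (chr19:29367455-29388095) and Pdcd1lg2 (chr19:29410919-29471161) are neighbours, 22823 bases apart on the same strand, with a pattern difference of 0.36. Icosl is at chr10:78069302-78083913, Cd72 at chr4:43446462-43454628 and Il4i1 at chr7:44816387-44840809.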

How the data were processed

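B lymphocytes from mouse spleen were sequenced as polyadenylated RNA in directional libraries, per the labels' protocols, in 12 libraries of 3 genotypes. The authors deposited 1 file per library with a coverage signal per gene symbol; 91.6% of values above 0 are not whole numbers, so the values are not counts and the read depth behind them is unknown. Library sums of coverage ran from 1277305.5 to 1885768.9. The submitters' processing notes name mm10, DESeq and R 4.3.3, without roles, and the aligner and the coverage step are not given in the sources used here. Coverage was divided by unweighted trimmed-mean factors (trims of 30% on the ratios and 5% on the averages, both tails). A gene entered a comparison when 4 or more of its 8 libraries reached a scaled coverage of 1. The test was limma 3.58.1 in R 4.3.3 on log2(scaled coverage + 0.5), two-sided, with robust moderation and a variance trend and Benjamini-Hochberg adjustment over the transcriptome; fold changes on this scale understate the change of low genes. Figures used Python 3.11.15 and matplotlib 3.10.9. Replicate numbers are shared by the groups. In the knockout group and Eμ-Myc, deviations of same-numbered libraries correlated with r of 0.657, 0.192, 0.253 and 0.607 across genes, all above 0.1. A fit that pairs them was therefore run. Knockout libraries 2 and 3 correlated best with Eμ-Myc libraries 1 and 4, and the labels state no pairing, so these pairs are not established. In the comparisons with WT the numbers were not taken as pairs, since r fell to -0.0972 and -0.423. All values reported come from the fit without pairing, and the paired fit was an alternative that changed no call of the 10 genes between the transgenic groups. The members, the gene lists and the tests were chosen with earlier results of these data known. The text names all 10 members and up to 4 genes with the smallest p of each list, and Prps2 and Myc as label checks. Other genes of the lists, the genes that overlap a member and the marker genes of the closing section are named for their role. One gene of the pan-B-cell list is not reported here and was left out of its sums. Alternatives were other scalings, pseudocounts of 0.1 and 2, a minimum of 10 per library or none, a joint fit of the 12 libraries, library quality weights, a replicate block, and leaving out each library.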

Additional observations from a re-analysis of the deposited data

Results flagged for a closer look

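Among 30 sets of 4 libraries (10 genes in 3 groups), 2 had a library far from the other members of its group by Dixon's test, which flags about 5% of groups by chance. Pdcd1lg2 was 3.69 in Eμ-Myc library 1, against 1.91 to 2.05 in the other Eμ-Myc libraries. Cd47 was 182 in Eμ-Myc library 2, against 155 to 158 in the others.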

How the results depend on the processing

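Of 51 recomputed counts of how many of the 10 genes were called, 38 stayed within 1.5 times the reported one. In Eμ-Myc against WT the count of 7 became 3 with all 12 libraries in one fit, and 6 to 7 without single libraries. Among all genes, the 7016 called in that comparison became 5460 with all 12 libraries in one fit. In the knockout group against Eμ-Myc the count of 0 became 8 with library quality weights. In the knockout group against WT the count of 4 became 2 with a filter of 10 in every library, where only 4 of the genes were tested, 7 with all 12 libraries in one fit, 10 with library quality weights and 2 with the replicate block, and it ran from 0 to 7 without single libraries. The replicate block left the counts at 7 and 0 in the other comparisons. Of 495 recomputed fold changes 14 changed sign, all of genes that had not passed. Cd86 in Eμ-Myc against WT was -0.04 with median-of-ratios scaling, -0.17 with total coverage scaling and -0.05 with library quality weights, and -0.15 to 0.18 without single libraries. In the knockout group against Eμ-Myc, leaving out single libraries gave -0.45 to 0.18 for Cd80, -0.90 to 0.18 for Cd274 and -0.64 to 0.27 for Pdcd1lg2. Total coverage scaling moved the median of all genes by -0.18 in Eμ-Myc against WT and by -0.15 in the knockout group against WT, and left 42% of calls higher in the first, against 55.2%. Among all genes, the 3716 called in the knockout group against WT became 10505 with library quality weights, 5975 with all 12 libraries, 1863 with the replicate block and 600 to 6633 without single libraries, and the 1 called against Eμ-Myc became 7459 with library quality weights. Where a setting changed a call and is not a change in the genes or libraries used, the cause was not tested. Coverage near 1 has no stated depth, which limits the values of Pdcd1lg2 and of knockout libraries 3 and 4.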

Other observations

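The maturation markers of B cells gave values beside those of the 10 genes. Fcer2a, which encodes CD23 of mature B cells, held 1703 to 3231 in WT, 279 to 644 in Eμ-Myc, and 1011, 836, 3.66 and 2.66 in knockout libraries 1 to 4. Cr2, the complement receptor CD21, held 80.4 to 184 in WT, 15.6 to 43.0 in Eμ-Myc, and 66.0, 61.9, 0.111 and 0.333 in the same knockout libraries. In Eμ-Myc against WT the log2 fold change was -2.58 for Fcer2a (limma adjusted p 1.31e-04) and -2.47 for Cr2 (adjusted p 4.53e-04). Of the immature B-cell list 4 of 8 genes tested were called higher in Eμ-Myc, among them Rag1 with 3.01, Igll1 with 2.48 and Vpreb1 with 2.09, and 30.4% of all genes tested were called higher. Igll1, Vpreb1 and Rag2, the other gene called higher, reached the minimum for testing through the Eμ-Myc libraries, with 1, 1 and 0 WT libraries above it, so the count of 4 gives no support of its own. Another of the 8, Il7r, which T cells also express, was called lower, at -2.39 (limma adjusted p 0.00566). Rag1, a subunit of the recombinase that assembles antigen receptor genes, held 1.49 to 3.69 in WT and 18.3 to 32.6 in Eμ-Myc. In knockout libraries 1 to 4 Rag1 held 22.0, 27.6, 8.44 and 10.2, and Igll1, part of the surrogate light chain, held 4.26, 2.70, 4.77 and 4.55.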
